A study of Mus musculus with 7 samples.

Results

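The transcripts examined here belong to 6 genes of intestinal zinc handling, the metallothioneins Mt1 and Mt2, the zinc-sensing transcription factor Mtf1, the zinc importers Slc39a4 (ZIP4) and Slc39a5 (ZIP5) and the zinc exporter Slc30a1 (ZnT1). They were chosen by name for their roles and not by a rule on a measured value, though with earlier results of these data known. All 6 were found among the 38293 genes of the count table. The study asked what a shortage of dietary cystine, the oxidised dimer of cysteine, does to the intestinal mucosa. Male C57BL/6NRJ mice, 8 weeks old, ate a purified high-fat, low-calcium AIN93-G diet with 40% of its energy from fat. After 1 week of acclimatization they were kept for 2 weeks on that diet with 0.3% added L-cystine (normal cystine diet) or with this cystine replaced by alanine (low cystine diet), and were fasted for 4 h before sacrifice. Per the paper, the low cystine diet still held the cystine of its casein. RNA came from scrapings of the ileum, the last of 4 equal parts of the small intestine. The paper describes such scrapings as epithelium with its lamina propria and without the muscle layer. The counts of smooth muscle markers are given below, and their source was not tested. There were 4 libraries from the normal cystine diet and 3 from the low cystine diet, 1 mouse each, all of the same sex, strain, age and housing.

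Metallothioneins are small intracellular proteins in which closely spaced cysteine residues bind zinc and copper through their sulfur atoms, and they buffer the free zinc of the cell. Free zinc is sensed by the zinc finger factor encoded by Mtf1, which binds metal response elements in DNA and switches on Mt1, Mt2 and Slc30a1. In the enterocyte, ZIP4 takes up dietary zinc at the apical membrane, ZIP5 carries zinc into the cell from the blood side, and ZnT1 exports zinc across the basolateral membrane. Metallothionein genes also respond to glucocorticoids, oxidants and fasting.

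The coding sequences of Mt1 and Mt2 are shown because their cysteine content is the reason to look at them under a diet low in cystine. Both are read 5′ to 3′ from transcripts Mt1-201 and Mt2-201 of GENCODE M21 (GRCm38), without the stop codon, and capitals mark the cysteine codons TGC and TGT. Both genes lie on the plus strand of chromosome 8 and each coding sequence is spread over 3 exons, between 94179311 and 94180190 for Mt1 and between 94172848 and 94173424 for Mt2.
Mt1: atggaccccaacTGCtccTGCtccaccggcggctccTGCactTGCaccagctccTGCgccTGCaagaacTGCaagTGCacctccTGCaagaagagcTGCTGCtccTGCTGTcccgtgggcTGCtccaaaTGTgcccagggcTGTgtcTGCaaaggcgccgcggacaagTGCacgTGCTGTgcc
Mt2: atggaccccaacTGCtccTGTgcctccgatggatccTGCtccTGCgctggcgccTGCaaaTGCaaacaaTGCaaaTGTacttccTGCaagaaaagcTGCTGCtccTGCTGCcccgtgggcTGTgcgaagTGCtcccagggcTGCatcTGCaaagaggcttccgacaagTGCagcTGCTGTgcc
Each sequence has 183 bases and 61 codons, of which 20 are cysteine codons (16 TGC and 4 TGT). The sequences are identical at 145 of 183 positions (79.2%), and all 20 cysteine codons stand at the same positions in both, so the 38 differing bases leave the cysteine pattern intact.

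Cysteine made up 32.8% of the codons of Mt1 and of Mt2, the highest share among the 12635 tested genes with a coding sequence. The next gene, Sprr2b, had 21.4% and the median gene 1.90%. The other 4 genes were not rich in cysteine: the share was 3.58% in Slc30a1 (18 of 503 codons), 2.82% in Mtf1 (19 of 675), 2.27% in Slc39a4 (15 of 660) and 1.68% in Slc39a5 (9 of 535).

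**Figure D1:**
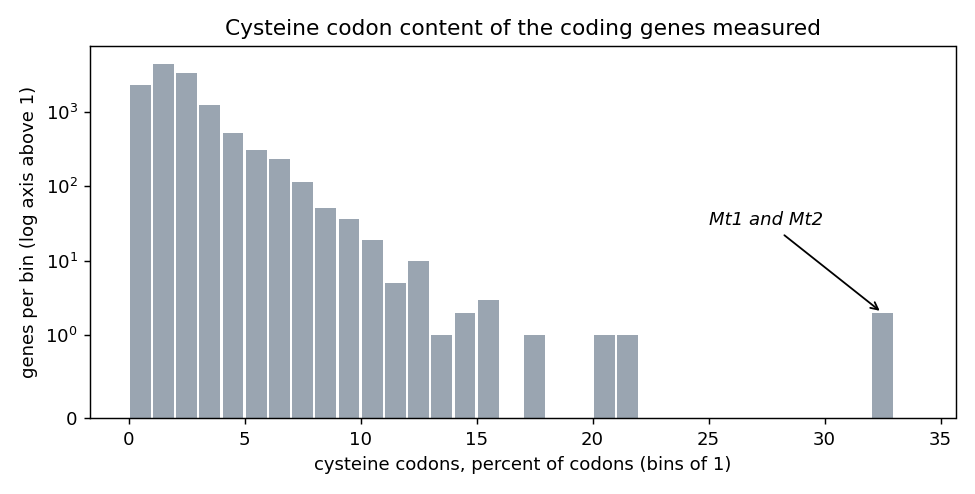
Cysteine codons as a percentage of all codons (x axis, bins of 1 percentage point) against the number of tested genes with a coding sequence in each bin (y axis, logarithmic above 1). Mt1 and Mt2 stand alone at 32.8%, and the next gene lies at 21.4%.

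The stretches just before the annotated gene starts are shown because metal response elements, the sites of the factor encoded by Mtf1, are expected to lie near the starts of its targets. They are the 250 bases before the RefSeq start (GRCm38.p6, plus strand) of Mt1 (chr8:94178839-94179088), Mt2 (chr8:94172368-94172617) and Slc30a1 (chr1:191906531-191906780), and capitals mark the element's core, searched as TGCACNC and TGCGCNC on both strands.
Mt1: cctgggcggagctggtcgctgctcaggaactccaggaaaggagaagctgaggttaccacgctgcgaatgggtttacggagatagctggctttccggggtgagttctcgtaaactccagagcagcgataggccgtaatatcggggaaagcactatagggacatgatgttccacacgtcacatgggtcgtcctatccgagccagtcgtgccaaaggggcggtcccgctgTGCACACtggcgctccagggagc
Mt2: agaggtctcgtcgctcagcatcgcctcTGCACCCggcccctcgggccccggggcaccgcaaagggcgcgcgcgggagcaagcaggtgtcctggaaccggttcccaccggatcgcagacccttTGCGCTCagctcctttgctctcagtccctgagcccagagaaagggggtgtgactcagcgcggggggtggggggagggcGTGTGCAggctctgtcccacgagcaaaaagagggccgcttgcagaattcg
Slc30a1: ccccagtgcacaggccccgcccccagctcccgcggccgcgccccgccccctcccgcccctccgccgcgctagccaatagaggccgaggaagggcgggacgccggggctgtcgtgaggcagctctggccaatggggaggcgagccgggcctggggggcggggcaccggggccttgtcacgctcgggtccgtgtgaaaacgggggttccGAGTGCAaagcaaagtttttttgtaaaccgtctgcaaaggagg
Mt2 held 3 cores, 2 on its own strand and 1 on the opposite strand, while Mt1 and Slc30a1 held 1 each. Of all 32851 RefSeq promoters of this length, 21.4% held at least 1 core and 1.26% at least 3, so a single core is common. Of the 2 annotated starts of Slc39a5, 1 had a core in its window and the other had none, and Mtf1 had none. Slc39a4 had no entry.

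The annotated starts of both metallothionein genes lie upstream of further cores. In the 180 bases before the start codon, within the annotated first exon, Mt2 held 3 cores and Mt1 held 2, beside the letters TATAAA, the TATA box, which began 95 bases before the start codon in Mt2 and 101 bases before it in Mt1. Among the 9260 coding genes whose principal transcript has this many bases before its start codon, 3.88% held at least 2 cores, 0.702% at least 3 and 3.11% held TATAAA. The other 4 genes held no core in that window. These matches are letters in a window and were not measured as binding.

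The libraries held 19712355 to 22412703 counts in the normal cystine group and 14888760 to 21942518 in the low cystine group. The least sampled value among the 6 genes was the 260 counts of Mt2 in 1 low cystine library, where counting error alone is 6.20%. Of the 38293 genes, 14869 passed the filter on low counts and were tested with edgeR's quasi-likelihood test, and 0 of them (0%) had an adjusted p-value under 0.05. Without adjustment, 817 genes (5.49%) had a p-value under 0.05, 396 higher (2.66%) and 421 lower (2.83%) in the low cystine group. DESeq2 called 16 of 17032 genes (0.0939%) after adjustment. Levels are given as CPM, counts scaled by the normalized library size, which compare libraries, or as CPM per kilobase of exon, which compare genes.

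All 6 genes were expressed and passed the filter, and 0 of 6 passed the test after adjustment or before it. Between the diets, the libraries overlapped for all 6, where 6.83% of all tested genes did not overlap (3.32% higher and 3.51% lower). The estimated fold change was below 0 for 4 genes (Mt1, Mt2, Mtf1 and Slc39a4) and above 0 for 2 (Slc39a5 and Slc30a1), where 51.2% of all tested genes lay above 0, with a median of -0.23 on the log2 scale beside 0.01 over all tested genes. For each gene, the range between mice on the same diet was larger than the difference between the means of the diets.

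Per kilobase of exon, Mt1 was the most abundant of the 6, followed by Slc39a4, Mt2, Slc39a5, Slc30a1 and Mtf1 in both groups. On the normal cystine diet, the level of Mt1 was 232.4 ± 110.2 CPM per kilobase, that of Slc39a4 171.1 ± 38.1 and that of Mt2 134.9 ± 46.0 (SD, n = 4). Slc39a5 followed at 77.3 ± 8.10, Slc30a1 at 14.8 ± 6.60 and Mtf1 at 7.10 ± 1.05 CPM per kilobase. The ranges of Mt1, Slc39a4 and Mt2 overlapped between libraries. Within each library of this group Mt1 lay above Mt2, at a ratio of Mt2 to Mt1 of 0.527 to 0.702. The place of Slc39a4 was not fixed, above both in normal cystine replicate 1 and below both in replicate 2. Slc30a1 and Mtf1 lay below the other 4 genes, with Mtf1 the lower of both, in every library of this group. On the low cystine diet the levels were 163.2 ± 105.3 for Mt1, 144.0 ± 31.7 for Slc39a4, 93.0 ± 79.6 for Mt2, 80.3 ± 4.75 for Slc39a5, 17.4 ± 1.97 for Slc30a1 and 6.11 ± 1.85 CPM per kilobase for Mtf1 (SD, n = 3). Here the libraries of Mt1 and Mt2 also overlapped those of Slc39a5. Over all 7 libraries, Mt1 held rank 345, Slc39a4 rank 458, Mt2 rank 636, Slc39a5 rank 951, Slc30a1 rank 3715 and Mtf1 rank 6360 of the 14869 tested genes by mean CPM per kilobase.

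**Figure D2:**
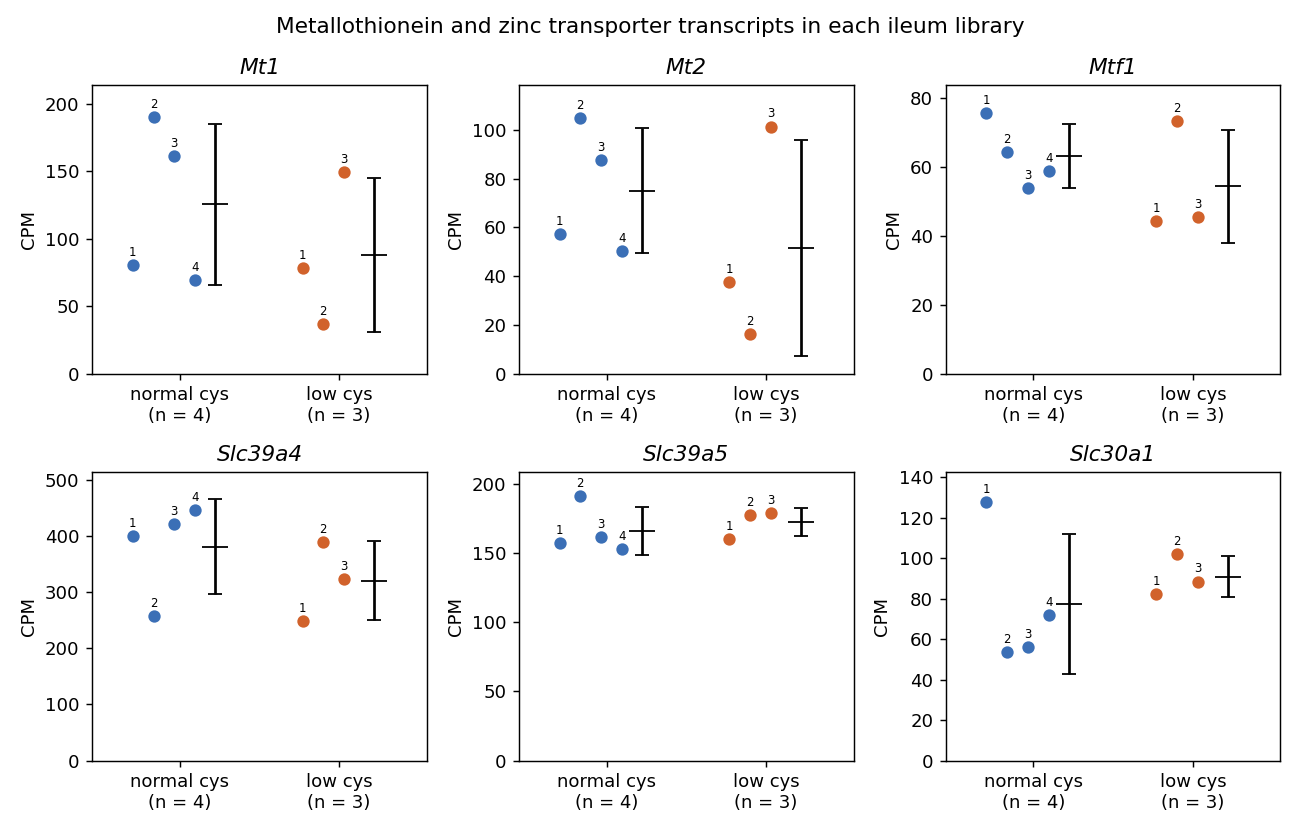
CPM of each of the 6 genes (y axis, from 0) in each library (points, with the replicate number) by diet (x axis). Horizontal marks and bars give mean ± SD; the points of both diets overlap in every panel, and the widest scatter relative to the mean is that of Mt2 on the low cystine diet, from 16.2 to 101.3 CPM.

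Mt1 (ENSMUSG00000031765, chromosome 8, 94179089 to 94180325, plus strand, 540 exon bases) encodes the first of the 2 broadly expressed metallothioneins. On the normal cystine diet it was at 80.5, 190.1, 161.6 and 69.8 CPM in replicates 1 to 4, and on the low cystine diet at 78.4, 36.8 and 149.3 CPM in replicates 1 to 3. The low cystine group thus held the lowest library but also a library above 2 of the normal ones. The means were 125.5 ± 59.5 and 88.1 ± 56.9 CPM (SD, n = 4 and n = 3), and the log2 fold change was -0.51 ± 0.51 (SE, adjusted p = 0.821, edgeR). The 95% confidence interval ran from 0.315-fold to 1.57-fold. The exact permutation test of the CPM values (two-sided, 35 arrangements of the diets) gave p = 0.371, where the smallest possible p is 0.0286. In RNA from a whole scraping, fewer cells that express a gene and less RNA per cell cannot be told apart.

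Mt2 (ENSMUSG00000031762, chromosome 8, 94172618 to 94173567, plus strand, 556 exon bases), the second broadly expressed metallothionein, lies 5521 bases upstream of Mt1, with 0 annotated genes between them. It was at 57.3, 104.7, 87.7 and 50.5 CPM in replicates 1 to 4 of the normal cystine diet and at 37.6, 16.2 and 101.3 CPM in replicates 1 to 3 of the low cystine diet. Low cystine replicates 1 and 2 lay below every normal library, and replicate 3 lay above 3 of the 4. The means were 75.0 ± 25.6 and 51.7 ± 44.2 CPM (SD, n = 4 and n = 3), with a log2 fold change of -0.54 ± 0.55 (SE, adjusted p = 0.825, edgeR) and a 95% interval from 0.289-fold to 1.64-fold. The exact permutation test gave p = 0.429. The estimate turned on single mice. Without low cystine replicate 3 it was -1.48, with an unadjusted edgeR p of 0.00777 and an adjusted p of 0.964, and without low cystine replicate 2 it was -0.09. For Mt1, the same omissions gave -1.12 and -0.12. Of the 50-base stretches of the Mt2 transcripts, searched on both strands, 45.9% are shared with Gm45774, which has no row of its own in the table. The paper describes a stranded library preparation. Whether the counting used strand is not given in the sources used here, so it is not known whether reads of both were told apart. Mt1 shared no stretch with another gene.

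Mt1 and Mt2 moved together from mouse to mouse. Centred on its mean over the 7 libraries, log2 CPM of Mt1 was -0.25, 0.99, 0.75 and -0.46 in the normal cystine libraries and -0.29, -1.38 and 0.64 in the low cystine libraries. The values of Mt2 were 0.04, 0.91, 0.66 and -0.14, then -0.56, -1.77 and 0.86. Both genes were therefore highest in normal cystine replicates 2 and 3 and low cystine replicate 3, and lowest in low cystine replicate 2. Measured by the root mean square difference of these centred values, Mt1 was the nearest of all tested genes to Mt2 (0.26) and Mt2 the second nearest to Mt1. The gene nearest to Mt1 was Wnt6 (0.23), a Wnt ligand at a mean of only 1.18 CPM, followed after Mt2 by Lrrn1 (0.32), and the genes following Mt1 in the order for Mt2 were 1810062O18Rik (0.38) and Lrrn1 (0.42). These likenesses are over 7 libraries that also share depth and preparation.

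Mt1 and Mt2 together took 0.0134%, 0.0303%, 0.0225% and 0.0112% of all counts in the normal cystine libraries and 0.0130%, 0.00541% and 0.0261% in the low cystine libraries. The mean shares were 0.0194 ± 0.00879% and 0.0148 ± 0.0105% (SD, n = 4 and n = 3; exact permutation p = 0.543), and without low cystine replicate 2 the difference turned from below 0 to 0.000197 percentage points above it. The lowest share was that of low cystine replicate 2 and the highest that of normal cystine replicate 2. The ratio of Mt2 to Mt1 per kilobase was 0.691, 0.535, 0.527 and 0.702 on the normal cystine diet and 0.466, 0.429 and 0.659 on the low cystine diet. This ratio varied far less than either level, and the groups overlapped (means 0.614 ± 0.0959 and 0.518 ± 0.124, SD, n = 4 and n = 3, exact permutation p = 0.314).

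The metallothioneins varied more between mice than the transporters did. Over the 7 libraries, the SD of log2 CPM was 0.84 for Mt1 and 0.96 for Mt2, larger than in 93.5% and 95.9% of the tested genes, whose median was 0.30. It was 0.45 for Slc30a1, 0.34 for Slc39a4 and 0.31 for Mtf1, near the middle of all genes or somewhat above it. Slc39a5 was the steadiest at 0.12, where only 6.46% of the tested genes varied less.

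Mtf1 (ENSMUSG00000028890, chromosome 4, 124802104 to 124849800, plus strand, 8907 exon bases) encodes the factor that reads free zinc. It was at 75.7, 64.3, 54.0 and 58.9 CPM on the normal cystine diet and at 44.3, 73.4 and 45.5 CPM on the low cystine diet. Low cystine replicates 1 and 3 were the lowest of the 7, and replicate 2 was the second highest. The log2 fold change was -0.22 ± 0.20 (SE, adjusted p = 0.814, edgeR), with a 95% interval from 0.626-fold to 1.18-fold and an exact permutation p of 0.400. Without low cystine replicate 2 the estimate was -0.47, with an unadjusted edgeR p of 0.0239 and an adjusted p of 0.714. The opposite-strand gene 1110065P20Rik shares 316 of its exon bases (3.55%).

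The 3 genes nearest in pattern to Mtf1 were Tbc1d10c (0.07), Cd3d (0.09), a chain of the T cell receptor complex, and Itgae (0.10), the integrin of intraepithelial lymphocytes. The summed CPM of the 5 T cell markers was 63.2, 48.8, 54.7 and 52.2 in the normal cystine libraries and 38.0, 57.2 and 44.0 in the low cystine libraries, overlapping between the diets, with none of the 5 at 0. Its part in the values of Mtf1 was not tested.

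Slc39a4 (ENSMUSG00000063354, chromosome 15, 76612385 to 76616852, minus strand, 2224 exon bases) encodes the apical importer of dietary zinc and was by CPM the most abundant of the 6. It was at 399.7, 256.6, 420.6 and 445.6 CPM on the normal cystine diet and at 248.2, 388.9 and 323.6 CPM on the low cystine diet. Normal cystine replicate 2 was low, close to low cystine replicate 1, while the other 3 normal libraries lay above all low cystine libraries. The means were 380.6 ± 84.8 and 320.2 ± 70.4 CPM (SD, n = 4 and n = 3), and the log2 fold change was -0.25 ± 0.22 (SE, adjusted p = 0.808, edgeR; exact permutation p = 0.343). The 95% interval ran from 0.593-fold to 1.19-fold. Its nearest genes in pattern were Crim1 (0.06), Maff (0.09) and Il13ra1 (0.09).

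Slc39a5 (ENSMUSG00000039878, chromosome 10, 128395934 to 128401224, minus strand, 2141 exon bases), the importer of the basolateral side, was the most evenly expressed. It was at 157.0, 191.0, 161.5 and 152.8 CPM on the normal cystine diet and at 160.3, 177.1 and 178.6 CPM on the low cystine diet. The means were 165.6 ± 17.3 and 172.0 ± 10.2 CPM (SD, n = 4 and n = 3), the log2 fold change was 0.05 ± 0.13 (SE, adjusted p = 0.912, edgeR; exact permutation p = 0.6), and the 95% interval was the narrowest of the 6, from 0.852-fold to 1.27-fold. ZIP5 is also a product of pancreatic acinar cells, but 6 of 8 acinar markers were at 0 in all 7 libraries and their sum was at most 0.136 CPM. The nearest genes in pattern were Ccdc12 (0.03), Rnf220 (0.04) and Npc2 (0.05). The ratio of Slc39a4 to Slc39a5 per kilobase was 2.45, 1.29, 2.51 and 2.81 on the normal cystine diet and 1.49, 2.11 and 1.74 on the low cystine diet. The apical importer was the more abundant transcript in every mouse, and the ratio did not separate the diets (exact permutation p = 0.371).

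Slc30a1 (ENSMUSG00000037434, chromosome 1, 191906767 to 191913247, plus strand, 5244 exon bases) encodes the exporter of the basolateral membrane. It was at 128.0, 53.9, 56.0 and 72.1 CPM on the normal cystine diet and at 82.1, 102.3 and 88.5 CPM on the low cystine diet. All low cystine libraries lay above 3 of the normal ones and below normal cystine replicate 1. The means were 77.5 ± 34.6 and 91.0 ± 10.3 CPM (SD, n = 4 and n = 3), with a log2 fold change of 0.23 ± 0.29 (SE, adjusted p = 0.848, edgeR; exact permutation p = 0.543) and a 95% interval from 0.745-fold to 1.85-fold. Without normal cystine replicate 1 the log2 fold change was 0.59, with an unadjusted edgeR p of 0.00574 and an adjusted p of 0.373. The opposite-strand gene 1700034H15Rik shares 468 exon bases (8.92%) with Slc30a1.

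Slc30a1 did not follow Mt1 and Mt2, although all 3 are targets of the same factor. Its centred log2 values were 0.68, -0.57, -0.51 and -0.15 on the normal cystine diet and 0.04, 0.36 and 0.15 on the low cystine diet. In normal cystine replicates 2 and 3, where both metallothioneins were high, Slc30a1 was lowest, and in low cystine replicate 2, where both were lowest, it was the second highest. By the distance used above, Slc30a1 held rank 13572 of the 14869 tested genes from Mt1 and rank 13229 from Mt2, and its own nearest genes were Cbwd1 (0.12), Ppm1k (0.13) and Cttnbp2nl (0.14). The ratio of Mt1 to Slc30a1 per kilobase ranged from 6.11 to 34.2 on the normal cystine diet and from 3.49 to 16.4 on the low cystine diet (exact permutation p = 0.314).

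**Figure D3:**
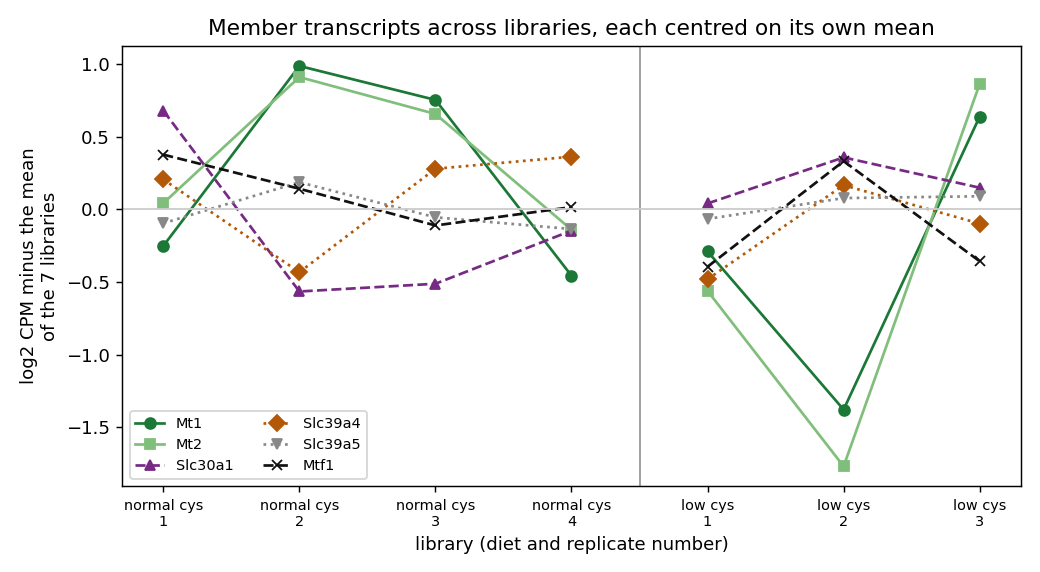
Log2 CPM of each gene minus its mean over the 7 libraries (y axis) in each library (x axis, by diet and replicate number). Lines join the points of 1 gene within a diet for reading only; Mt1 and Mt2 run together, down to -1.38 and -1.77 in low cystine replicate 2, while Slc30a1 is highest, at 0.68, in normal cystine replicate 1.

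The remaining members of these families gave no adjusted call. Mt3, the metallothionein of the brain, had at most 3 counts in a library and Mt4, that of stratified epithelia, at most 1, so the ileal metallothionein transcripts counted were those of Mt1 and Mt2. Of the 14 ZIP importers, 13 were tested and 0 had an unadjusted p under 0.05 in either direction, beside 5.49% of all tested genes. Their fold changes ranged from -0.31 to 0.80 on the log2 scale (median 0.05), with 9 above 0 and 4 below, and Slc39a12 had 0 counts in every library. Per kilobase, Slc39a4 and Slc39a5 were the most abundant of the 24 transporters of both families over all libraries, at 159.5 and 78.6 CPM per kilobase.

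Of the 10 ZnT exporters, 8 were tested, with a median log2 fold change of -0.02, and 1 had an unadjusted p under 0.05, beside 5.49% of all tested genes. This was Slc30a2, which loads zinc into vesicles and is known from the secretory granules of Paneth cells. It was at 81.5, 163.8, 130.9 and 107.1 CPM on the normal cystine diet and at 81.1, 75.1 and 91.7 CPM on the low cystine diet, lower in all low cystine libraries than in 3 of the 4 normal ones. Its log2 fold change was -0.55 ± 0.22 (SE, unadjusted p = 0.0346, adjusted p = 0.794, edgeR; exact permutation p = 0.114), which does not pass the adjusted threshold. The unadjusted p was 0.113 under total counts and 0.0738 to 0.121 in 4 of the 7 fits without 1 library, and the estimate ranged from -0.70 without normal cystine replicate 1 to -0.35 without normal cystine replicate 2. Under the other settings with all libraries, the unadjusted p was 0.0164 (edgeR, no filter on low counts) to 0.0469 (limma-voom). The summed CPM of the 5 Paneth cell markers was 3534, 1726, 1675 and 534.8 in the normal cystine libraries and 3555, 2118 and 3719 in the low cystine libraries, with none of them at 0.

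Beside the metallothioneins, 9 genes with reported metal response elements or dependence on the same factor were listed, Slc30a1 and Slc30a2 among them, and 8 were tested. Slc30a2 alone had an unadjusted p under 0.05, with the same limits, beside 5.49% of all tested genes (2.83% lower). Of the 8 estimates, 4 lay above 0 and 4 below, with a median log2 fold change of 0.00. Of all tested genes, 51.2% lay above 0. The list was not sorted by whether the factor raises or lowers each gene, so this split does not read on the factor.

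**Figure D4:**
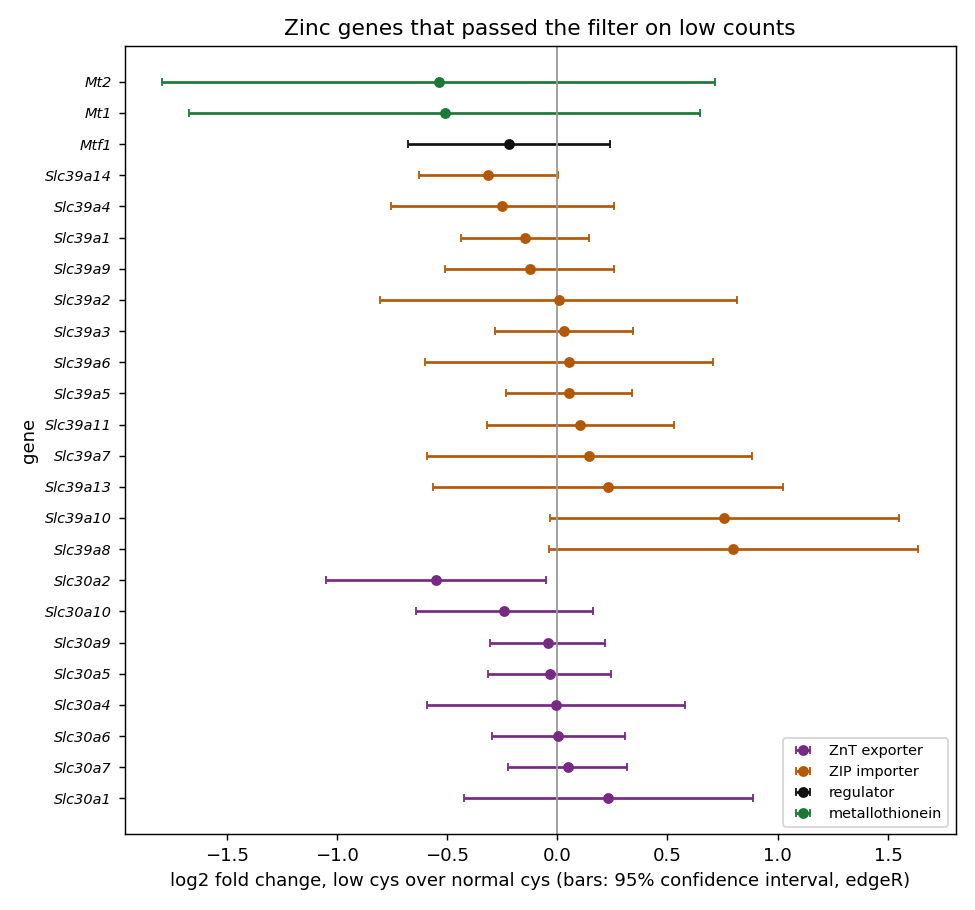
Log2 fold change, low over normal cystine diet (x axis, points), with its 95% confidence interval (bars, edgeR, not adjusted for the number of genes), of the 24 tested metallothionein, Mtf1, ZIP and ZnT genes (y axis, coloured by family). Intervals of all but Slc30a2 include 0, and those of Mt1 and Mt2 are the widest among the 6 genes examined.

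Metallothioneins also bind copper, and of the 9 copper-handling genes, all tested, 0 had an unadjusted p under 0.05, beside 5.49% of all tested genes. Of their estimates, 7 lay below 0 and 2 above, with a median log2 fold change of -0.23 beside 0.01 over all tested genes. In 1 of the 9 every low cystine library lay below all normal ones, beside 3.51% of all tested genes. The copper-handling gene with the highest CPM, not divided by length, was the copper importer Slc31a1, at 316.5 ± 73.5 CPM on the normal cystine diet (SD, n = 4) and 245.5 ± 16.0 on the low cystine diet (SD, n = 3; log2 fold change -0.37 ± 0.19 SE, adjusted p = 0.794, edgeR). Glucocorticoids induce metallothioneins, and of the 8 glucocorticoid-responsive genes, 7 were tested and 0 had an unadjusted p under 0.05, beside 5.49% of all tested genes. Of the 7 estimates, 6 lay above 0 and 1 below, with a median log2 fold change of 0.25, where 51.2% of all tested genes lay above 0. The gene of this list with the highest CPM was Sgk1, at 362.5 ± 122.8 and 382.4 ± 249.0 CPM (SD, n = 4 and n = 3). Sgk1 was highest in low cystine replicate 1 (660.6 CPM) and lowest in low cystine replicate 2 (180.2 CPM), the library with the least Mt1 and Mt2. The summed CPM of that list was 431.5, 621.6, 325.8 and 621.6 on the normal cystine diet and 1011, 289.5 and 443.7 on the low cystine diet, and its part in the spread of the metallothioneins was not tested.

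Among 6 small LIM-domain proteins, which hold zinc with cysteine residues as metallothioneins do, 4 were tested and 1 had an unadjusted p under 0.05, beside 5.49% of all tested genes (2.83% lower). The list had no common direction, since 3 of the 4 estimates lay above 0 (median log2 fold change 0.33) and Csrp2, named after its value was seen, was higher in every low cystine library (0.45, unadjusted p = 0.0744, edgeR). The gene below 0 was Crip1, the cysteine-rich intestinal protein. Crip1 was at 1433, 1969, 2290 and 2317 CPM on the normal cystine diet and at 1245, 1540 and 1517 CPM on the low cystine diet. Normal cystine replicate 1 lay among the low cystine libraries, and the log2 fold change was -0.48 ± 0.20 (SE, unadjusted p = 0.0426, adjusted p = 0.794, edgeR; exact permutation p = 0.114). The unadjusted p was 0.0990 under total counts and 0.0687 to 0.140 in 6 of the 7 fits without 1 library. Of those 7 fits, it stayed under 0.05 only in the fit without normal cystine replicate 1. Under the other settings with all libraries, it was 0.0170 (DESeq2) to 0.0486 (edgeR, non-robust fit).

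Markers of several cell types differed between the libraries of the diets. The summed CPM of the 5 epithelium markers was 13420 to 13930 in the normal cystine libraries and 9966 to 12250 in the low cystine libraries, without overlap. Singly, 2 of the 5 genes did not overlap, both lower on the low cystine diet. Of all tested genes, 6.83% did not overlap (3.32% higher and 3.51% lower), the share to set beside each such count here. The 5 markers of absorptive enterocytes, where ZIP4 and ZnT1 act, summed to 31330 to 49840 and 15860 to 32030, which overlapped. Stromal markers (6 genes, 2 of them not overlapping singly) summed to 4.11 to 8.93 and 11.8 to 18.6 CPM and endothelial markers (5 genes, each overlapping) to 1.1 to 4.39 and 4.57 to 5.62, both higher on the low cystine diet without overlap. The sum of the 5 plasma and B cell markers, 37.1 to 113.1 and 149.7 to 219.4 CPM, was mostly Jchain, the joining chain of secreted immunoglobulins, at 32.8 to 101.7 and 124.3 to 198.3 CPM, while the other 4 markers overlapped. Smooth muscle markers (5 genes) summed to 10.8, 6.72, 4.31 and 2.15 CPM in the normal cystine libraries and 5.22, 32.6 and 12.8 in the low cystine libraries, with all 5 estimates above 0 (median log2 fold change 1.44). The highest sum was that of low cystine replicate 2, the library with the least Mt1 and Mt2. None of these markers was at 0 in every library. The 5 ileum markers summed to 5603 to 9562 and 4379 to 7342 CPM, and all 5 were detected. The 5 markers of the proximal small intestine summed to 1198, 1441, 2199 and 1322 CPM in the normal cystine libraries. In the low cystine libraries they summed to 737.7, 1083 and 1709 CPM, which overlapped. These sums were highest in normal cystine replicates 2 and 3 and low cystine replicate 3, where Mt1 and Mt2 were also highest. The lowest sum was that of low cystine replicate 1, while Mt1 and Mt2 were lowest in replicate 2. The part of these differences in the values of the 6 genes was not tested.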

How the data were processed

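Per the labels and the study's methods, ileal RNA was sequenced with 50-base reads, trimmed with Trim Galore (version 0.6.5), cleared of ribosomal reads, aligned to GRCm38 with STAR and counted per gene with featureCounts. The authors deposited raw counts, and these whole-number counts were used as deposited. The multi-mapping and strand settings of the counting are not given in the sources used here.

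Genes were filtered with filterByExpr (minimum count 10, minimum total 15) and tested between the diets with edgeR's robust quasi-likelihood test (version 4.0.16, R 4.3.3) on TMM-normalized counts, without covariates. Adjusted p-values are Benjamini-Hochberg values over all tested genes. Alternatives were DESeq2 (version 1.42.0) with its size factors, limma-voom (limma version 3.58.1), other scalings and filters, and leaving out each library. For single values, an exact permutation test (two-sided) enumerated the 35 arrangements of the diet labels. Likeness in pattern is the root mean square difference of log2 CPM (prior count 2) centred on the 7 libraries. Promoters are from RefSeq (GRCm38.p6), and coding sequences are from APPRIS principal transcripts.

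The 6 genes and all gene lists were chosen with earlier results of these data known. Genes named beside the 6 are those of a list with an unadjusted p under 0.05, otherwise its tested gene with the highest CPM, and the 3 genes nearest to each of the 6 in pattern. Lists not described above gave 0 adjusted calls. Totals, 14888760 to 22412703 counts per library, set the counting precision, and replicates are separate mice.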

Additional observations from a re-analysis of the deposited data

Results flagged for a closer look

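In 28 values examined for a library far from the other 3 of the normal cystine group (the 6 genes, the joint share and the ratio of Mt1 and Mt2, and the summed levels of the gene lists), 2 exceeded Dixon's 95% critical ratio of gap to range, where chance gives about 1.4. Both were in normal cystine replicate 4. Its summed CPM of 5 plasma and B cell markers was 37.1 beside 108.7 to 113.1 in the others (ratio of gap to range 0.942), and its summed CPM of 5 endothelial markers was 1.1 beside 3.90 to 4.39 (ratio 0.853). None of the 6 zinc genes was among them.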

How the results depend on the processing

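Each of the 6 fold changes was recomputed under 7 other settings and with each of the 7 libraries left out, 84 values in all. All 84 kept their direction, and none had an adjusted p-value under 0.05. The lowest and highest log2 fold changes with 1 library left out were -1.12 and -0.12 for Mt1, -1.48 and -0.09 for Mt2, -0.47 and -0.08 for Mtf1, -0.39 and -0.09 for Slc39a4, 0.02 and 0.15 for Slc39a5, and 0.10 and 0.59 for Slc30a1. Scaling by total counts without TMM shifted the median of all genes by 0.14 on the log2 scale, and relative to that shift no direction among the 6 turned either.

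Over all genes, adjusted calls numbered 16 in DESeq2 and 0 to 1 with 1 library left out, the 1 without normal cystine replicate 2. Under total counts, 906 genes were higher and 126 lower before adjustment in place of 396 and 421, and with 1 library left out 175 to 931 were higher and 83 to 833 lower. Of the 29 zinc genes listed, 24 were tested, or 28 in DESeq2 and without the filter on low counts. Their unadjusted calls ranged over the 7 settings from 0 to 2 higher and 0 to 2 lower. With 1 library left out they ranged from 0 to 3 higher and 0 to 2 lower. In the main fit, 2.66% of all tested genes were higher and 2.83% lower. Beside those described above these were Slc39a8, Slc39a10 and Slc39a14, named after their values were seen. Sgk1 turned to -0.078 under limma-voom and ranged from -0.56 to 0.44 with 1 library left out. The difference of the joint share of Mt1 and Mt2 ranged from -0.0102 to 0.000197 percentage points, above 0 without low cystine replicate 2. The causes were not tested. No paired analysis was possible because the labels give the diets no shared replicate numbers.

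With 3 and 4 mice, the exact permutation test cannot go below 0.0286, or below 0.1 and 0.0667 with 1 mouse left out. Depth limits none of the 6 values as much as the number of mice does, since the counting error was at most 6.20%.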

Other observations

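Beyond Mt1 and Mt2, 43 tested genes had cysteine in at least 10% of their codons, a list chosen after seeing the data. None had an adjusted edgeR p-value under 0.05. Before adjustment, 4 were higher on the low cystine diet and 4 lower, and the median log2 fold change was 0.02 (-0.02 with Mt1 and Mt2), beside 315 higher and 374 lower genes and a median of 0.00 over the 12635 tested genes with a coding sequence. The lower genes were Ccn1, a secreted matrix protein, and Sprr2a1, Sprr2a2 and Sprr2a3, near-identical small proline-rich genes whose reads cannot be told apart with certainty. The higher genes were Slpi, a secreted protease inhibitor, the microfibril protein Fbn1, the Notch ligand Jag2 and Ltbp1, a binding protein of latent TGF-beta. These 8 were named after their values were seen.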
